A study of Mus musculus with 8 samples.

Results

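The 9 genes described here encode enzymes, and 1 cofactor, that digest fat, the ends of proteins, and starch: Pnlip, Pnliprp1, Pnliprp2, Cel, Clps, Pla2g1b, Cpa1, Cpb1 and Amy1. Pancreatic acinar cells release these products into the gut, except that Amy1 is the amylase best known from salivary gland and liver. The 9 genes were followed in pancreatic islets of 2 inbred mouse strains, AKR/J and C57Bl/6J, each kept on a high-fat diet for 3 months. Each strain gave 4 RNA samples, islets of 2 mice were pooled for each sample, and each sample was read on its own Affymetrix mouse expression array (arrays 1 to 4 for AKR/J, 5 to 8 for C57Bl/6J). The labels give no age or sex, and no genetic alteration, so the comparison is between strains on 1 diet, and mice on other diets were not analysed here. The genes were chosen by name, as all probe sets that the platform annotation assigns to them. A probe set is a group of short probes that report 1 transcript. The annotation named a member alone for 13 of the 45037 probe sets that are not controls, covering 8 of the 9 genes, among 18193 genes so named in all. Pnlip, the main pancreatic triglyceride lipase, is not reported here, because no probe set was assigned to it by name.

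Acinar cells make and store digestive enzymes and surround the islets, the hormone-secreting cell clusters. Islets are freed from this tissue before use, and some of it can come along. Many of these enzymes are secreted as inactive precursors that are cut to their active form in the gut, and their genes are driven together by acinar transcription factors such as the PTF1 complex, which holds Ptf1a. In bulk RNA, fewer acinar cells and less RNA per acinar cell cannot be told apart.

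Every tested member was lower in AKR/J. Values are GCRMA intensities, a background-corrected and array-normalized measure made by the authors, on a log2 scale, in which a step of 1 is a doubling. A probe set was tested if it was detected (detection p under 0.05) on at least 4 of the 8 arrays, and 11 of the 13 passed. All 11 were lower in AKR/J (limma with Benjamini-Hochberg adjustment over 20772 probe sets, adjusted p from 4.47e-05 to 0.00374), where 7.7% of all tested probe sets were called lower and 14.3% were called in either direction. On all 11, the 4 AKR/J arrays lay below the 4 C57Bl/6J arrays, which held for 10.6% of all tested probe sets. The differences ran from 1.42-fold for Cpb1 to 5.46-fold for Pla2g1b. The median log2 difference (AKR/J minus C57Bl/6J) of the 11 was -0.85, against -0.01 over all tested probe sets. The other 2 probe sets, both of Pla2g1b, were detected on 0 of 8 arrays.

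**Figure D1:**
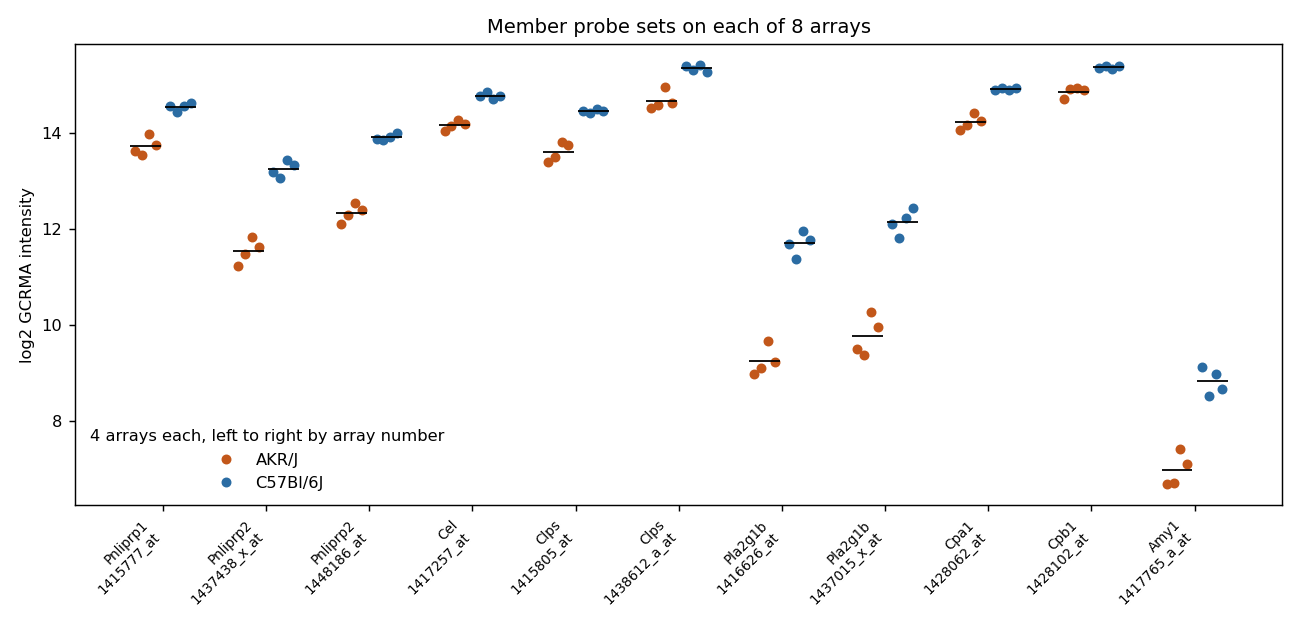
The log2 GCRMA intensity of the 11 tested member probe sets (vertical axis) is plotted for each array, with 4 AKR/J arrays beside 4 C57Bl/6J arrays and a black line at each mean. The strains do not overlap for any of the 11, and the space between them is widest for Pla2g1b, Amy1 and Pnliprp2.

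Between 43.7% and 48.1% of probe sets were detected per array, and the Gapdh control probe sets, 3' over 5' on a log2 scale, ran from -0.33 to -0.24 in AKR/J and from -0.22 to 0.11 in C57Bl/6J, without overlap. The same ratio of the actin control ran from 1.23 to 1.35 in AKR/J and overlapped that of C57Bl/6J, at 1.16 to 1.41. The part of the Gapdh gap in the results was not tested. The islet label was borne out by the hormone genes: Ins2 had mean log2 values of 15.71 (AKR/J) and 15.50 (C57Bl/6J), and Gcg of 15.37 and 15.36. Acinar transcripts were present on every array too. Of 12 defining acinar markers outside the members, 11 passed the detection filter, and their summed intensity was 115400 to 133500 in AKR/J against 196000 to 203500 in C57Bl/6J. Of these 11, 10 were lower in AKR/J and Bhlha15 was not called, while Rbpjl did not pass the filter. Macrophage marker sums were also lower in AKR/J, at 1680 to 2175 against 3064 to 4077 (8 of 8 markers tested), and endothelial sums were higher, at 1547 to 1993 against 1201 to 1400 (6 of 6). Beta cell sums (8 of 10 listed markers tested) overlapped, at 134400 to 143100 and 128700 to 135500, as did duct sums (5 of 10), at 6072 to 6730 and 5253 to 6503. Single genes of both lists did differ. Of the 8 beta cell genes, 2 were called lower in AKR/J and 0 higher. These were Slc2a2 (1.47-fold, limma adjusted p = 0.0152) and Ucn3 (1.43-fold, 0.00559). Of the 5 duct genes, Tspan8 was called lower (2.9-fold, limma adjusted p = 0.000194) and Epcam higher (1.21-fold, 0.0343). Alpha cell sums (3 of 5) were higher in AKR/J without overlap, at 76350 to 81640 against 70930 to 74480. Of these 3 alpha genes only Ttr was called higher (log2 difference 0.26, limma adjusted p = 0.0308). Gcg (0.01) and Irx2 (-0.46) were not called. Ppy, the PP cell marker, was also higher in AKR/J without overlap, at 21610 to 29230 against 9801 to 20050. Delta cell sums (2 of 2) and stromal sums (5 of 5) overlapped. Sums of fat markers (2 of 4 tested, Fabp4 and Lpl; Adipoq did not pass the filter) were lower in AKR/J, at 2351 to 2833 against 3790 to 5304. Sums of acinar, macrophage, fat, endothelial and alpha cell markers, and Ppy, thus differed between the strains on the same arrays. The part of these differences in the results on the digestive enzymes was not tested.

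Promoter sequences are shown for 4 members, the neighbouring lipase-related genes Pnliprp1 and Pnliprp2, whose measured differences were unequal, Cel, which holds the most matches to the motifs searched, and Pla2g1b, which differed most. Pnlip, Pnliprp1 and Pnliprp2 lie next to each other on chromosome 19. The sequences are from RefSeq (GRCm38.p6, the C57BL/6J reference) and run 5' to 3' from 250 bases before the annotated start to 50 after it. Capitals mark CACCTG, a form of the E-box bound by PTF1, TTTCCC, the other part of the PTF1 site, and TATAAA, the core letters of a TATA box, each searched on both strands. The table held entries for 8 of the 9 genes (9 windows, 2 of them for Amy1).
Pnliprp1, chr19:58728637-58728936, + strand: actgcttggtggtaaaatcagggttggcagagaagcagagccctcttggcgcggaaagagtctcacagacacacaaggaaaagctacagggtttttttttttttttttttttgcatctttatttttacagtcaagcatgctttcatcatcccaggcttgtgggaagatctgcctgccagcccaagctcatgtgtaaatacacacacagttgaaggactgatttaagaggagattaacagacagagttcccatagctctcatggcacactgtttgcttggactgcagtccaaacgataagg
Pnliprp2, chr19:58759473-58759772, + strand: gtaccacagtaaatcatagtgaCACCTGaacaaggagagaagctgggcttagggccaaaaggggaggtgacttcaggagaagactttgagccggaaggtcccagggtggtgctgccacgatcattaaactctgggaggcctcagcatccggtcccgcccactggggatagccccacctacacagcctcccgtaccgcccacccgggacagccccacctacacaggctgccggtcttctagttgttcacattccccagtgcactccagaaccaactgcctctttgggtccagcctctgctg
Cel, chr2:28563354-28563653, - strand: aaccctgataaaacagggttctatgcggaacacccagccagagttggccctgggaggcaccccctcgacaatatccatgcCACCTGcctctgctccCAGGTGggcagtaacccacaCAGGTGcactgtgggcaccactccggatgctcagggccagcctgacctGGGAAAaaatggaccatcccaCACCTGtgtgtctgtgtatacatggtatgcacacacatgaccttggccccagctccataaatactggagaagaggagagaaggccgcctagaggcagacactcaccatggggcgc
Pla2g1b, chr5:115465892-115466191, + strand: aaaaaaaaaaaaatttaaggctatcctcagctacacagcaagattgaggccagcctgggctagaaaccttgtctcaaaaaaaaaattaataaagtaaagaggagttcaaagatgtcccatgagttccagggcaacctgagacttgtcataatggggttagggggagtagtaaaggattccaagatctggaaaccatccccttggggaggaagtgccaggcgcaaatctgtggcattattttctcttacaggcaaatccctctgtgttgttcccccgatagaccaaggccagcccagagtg

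CACCTG was found in 3 of the 9 windows (Pnliprp2, Cel and Cpb1), where 20.2% of all 32851 promoter windows of this length hold it. TTTCCC was found in 2 (Cel and Cpa1), against 25.2% of all windows, and TATAAA in 3 (Pnlip, Cpb1 and Amy1), against 13.6%. The TATAAA match of Pnlip begins at -30, where a TATA box usually lies, and that of Cpb1 lies after the start site, at 35. Cel alone among the members held both CACCTG and TTTCCC, as 4.86% of all windows do. Counted from the start site, its 4 CACCTG matches begin at -170, -154, -134 and -65, and its TTTCCC match at -86. AAGGTCA, the site of the acinar nuclear receptor NR5A2, was found in Cel, against 4.72% of all windows. None of these 4 motifs was found in the windows of Pnliprp1 or Pla2g1b. A match is a run of letters and not a site, and no match says only that these letters are not in this window.

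Among the genes of fat digestion, Pla2g1b differed most. It encodes pancreatic phospholipase A2, which cuts fatty acids from phospholipids. Its probe set 1416626_at stood at log2 values of 8.99, 9.11, 9.67 and 9.24 on AKR/J arrays 1 to 4 and at 11.70, 11.38, 11.96 and 11.77 on C57Bl/6J arrays 5 to 8. The lowest C57Bl/6J array lay 1.71 above the highest AKR/J array. The means were 9.25 ± 0.30 and 11.70 ± 0.24 (SD, n = 4 each), a 5.46-fold difference with a 95% interval of 4.14 to 7.21 (limma adjusted p = 8.54e-05). A second probe set, 1437015_x_at, gave 5.13-fold (9.78 ± 0.41 and 12.14 ± 0.26, SD, n = 4 each, limma adjusted p = 0.000338). Their log2 differences were 0.09 apart. On the deposited per-array Signal, a linear intensity computed for each array alone, 1416626_at read 772 ± 67.8 in AKR/J against 2847 ± 525 in C57Bl/6J (SD, n = 4 each), which is 3.65-fold between the means of log2 Signal. The 2 undetected probe sets of this gene, 1433948_at and 1433949_x_at, had log2 values of 2.14 to 2.20 on all arrays and gave no level above background.

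Pnliprp2, a relative of pancreatic lipase that also acts on galactolipids and phospholipids, came next among the fat-digesting genes. Probe set 1448186_at read 12.11, 12.30, 12.54 and 12.40 on AKR/J arrays 1 to 4 and 13.88, 13.84, 13.92 and 13.997 on C57Bl/6J arrays 5 to 8. No AKR/J array came within 1.30 of a C57Bl/6J array. This is a 2.97-fold difference (95% interval 2.54 to 3.48, limma adjusted p = 4.47e-05, the smallest among the members). Probe set 1437438_x_at gave 3.29-fold (11.54 ± 0.25 and 13.26 ± 0.16, SD, n = 4 each).

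Its neighbour Pnliprp1 encodes a lipase-related protein with little lipase activity of its own. Its probe set 1415777_at read 13.62, 13.55, 13.98 and 13.75 on the AKR/J arrays and 14.55, 14.44, 14.57 and 14.62 on the C57Bl/6J arrays, so that AKR/J was again the lower strain on all arrays. The fold was 1.77 (95% interval 1.503 to 2.08, limma adjusted p = 0.00151), smaller than that of Pnliprp2. Compared within each array, the gap from Pnliprp1 to Pnliprp2 differed between the strains without overlap: Pnliprp2 minus Pnliprp1 ran from -1.505 to -1.25 in AKR/J and from -0.67 to -0.60 in C57Bl/6J. The same held on the per-array Signal, with -1.71 to -1.36 against -0.79 to -0.68. The measured signals thus changed unequally, but Pnliprp1 was read by the brighter probe set, and the part of brightness in this gap was not tested.

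Clps encodes colipase, the small cofactor that anchors pancreatic lipase to fat droplets coated with bile salts. Probe set 1415805_at read 13.39, 13.50, 13.81 and 13.75 in AKR/J against 14.47, 14.42, 14.49 and 14.45 in C57Bl/6J, with all AKR/J arrays lower. Its difference was 1.80-fold (95% interval 1.53 to 2.12, limma adjusted p = 0.0013), and that of 1438612_a_at was 1.60-fold (limma adjusted p = 0.00374), 0.17 apart on the log2 scale. Cel encodes carboxyl ester lipase, which bile salts activate and which cuts cholesterol esters as well as triglycerides. Its probe set 1417257_at read 14.04, 14.15, 14.28 and 14.18 in AKR/J against 14.76, 14.84, 14.70 and 14.78 in C57Bl/6J, a 1.53-fold difference without overlap (95% interval 1.36 to 1.71, limma adjusted p = 0.00114). With quantile-normalized per-array Signal, the Cel call was lost (log2 difference -0.23, limma adjusted p = 0.146).

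Both carboxypeptidases, zinc enzymes that remove single amino acids from the end of a peptide, were lower in AKR/J. Cpa1, which prefers bulky and aromatic residues, read (1428062_at) 14.06, 14.17, 14.42 and 14.26 in AKR/J against 14.90, 14.94, 14.90 and 14.94 in C57Bl/6J. Its fold was 1.62 (95% interval 1.41 to 1.85, limma adjusted p = 0.00141). Cpb1, which prefers basic residues, read (1428102_at) 14.71, 14.92, 14.93 and 14.89 in AKR/J against 15.36, 15.40, 15.33 and 15.39 in C57Bl/6J. Its 1.42-fold difference (95% interval 1.27 to 1.59, limma adjusted p = 0.00245) was the smallest of the 11. With quantile-normalized per-array Signal neither gene was called: the log2 difference was -0.33 for Cpa1 (limma adjusted p = 0.0534) and -0.12 for Cpb1 (limma adjusted p = 0.45). The strains stood apart for both genes, by 0.48 for Cpa1 and 0.40 for Cpb1. Within an array, Cpa1 minus Cpb1 was -0.75 to -0.51 in AKR/J against -0.46 to -0.43 in C57Bl/6J.

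Amy1 encodes an amylase, which cuts starch, and in mice it is the form best known from salivary gland and liver. Probe set 1417765_a_at read 6.69, 6.71, 7.42 and 7.12 in AKR/J against 9.13, 8.53, 8.99 and 8.68 in C57Bl/6J. All 4 AKR/J arrays were lower, by 3.60-fold between the means (95% interval 2.62 to 4.94, limma adjusted p = 0.000777). The per-array Signal read 71.0, 76.9, 104.6 and 72.8 in AKR/J against 236.6, 198.3, 291.2 and 225.2 in C57Bl/6J. Close amylase paralogs lie beside Amy1 on the same chromosome and their transcripts may add to this signal, so the value is uncertain as a measure of Amy1 itself. The pancreatic amylase genes are not reported here, since no tested probe set names one of them alone. A further probe set that the annotation gives to Amy1 and its neighbour Rnpc3 together cannot be assigned to either. It read 4.59 ± 0.55 in AKR/J against 4.62 ± 0.41 in C57Bl/6J (SD, n = 4 each, limma adjusted p = 0.96), with overlapping strains.

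**Figure D2:**
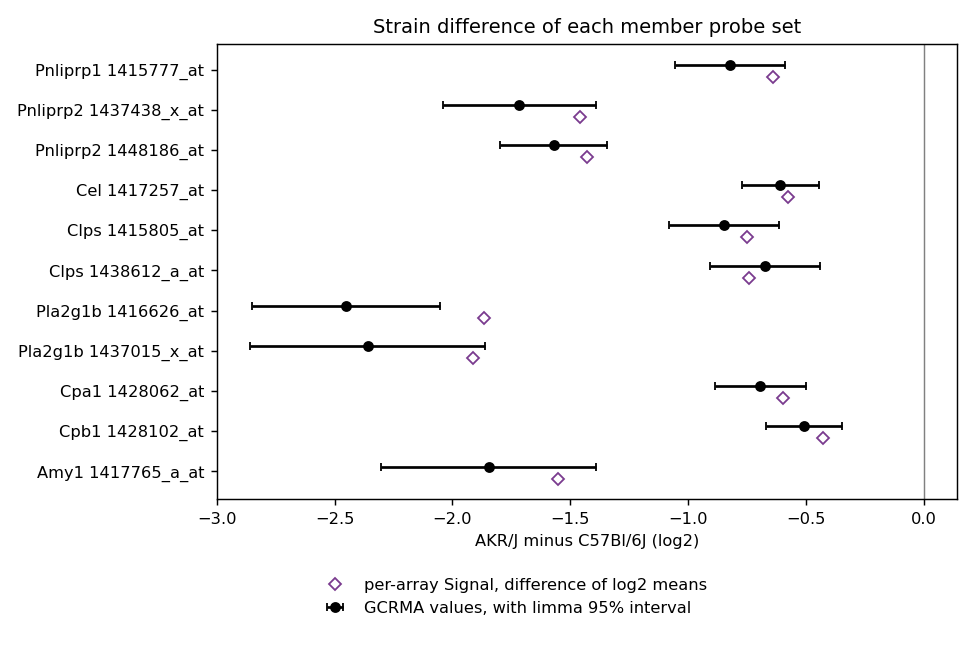
AKR/J minus C57Bl/6J log2 differences are plotted for the 11 tested member probe sets, as filled points with limma 95% intervals for GCRMA values and as open diamonds for the per-array Signal. All points lie left of 0 on both measures, from -2.45 to -0.51 for GCRMA, and 10 of the 11 diamonds lie nearer 0.

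The per-array Signal gave the same direction throughout. All 11 probe sets again had the 4 AKR/J arrays below the 4 C57Bl/6J arrays, against 10.1% of all tested probe sets, with folds from 1.35 to 3.77. For 10 of the 11 the Signal difference was smaller than the GCRMA one, the exception being Clps 1438612_a_at. When the Signal was quantile normalized, which gives every array the same distribution, 8 of the 11 were called lower, against 5.8% of tested probe sets. The calls of Cel, Cpa1 and Cpb1 were lost there, with the values given above. The highest Signal on an array was 19740.0 to 22992.8 in AKR/J against 23321.7 to 28460.2 in C57Bl/6J. Centring the Signal on array medians instead kept all 11 calls.

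The size of a member's difference went with how bright its probe set was. The 6 probe sets with a C57Bl/6J mean of at least 14 (Pnliprp1, Cel, both of Clps, Cpa1 and Cpb1) differed by 1.42- to 1.80-fold, and the 5 dimmer ones (of Pnliprp2, Pla2g1b and Amy1) by 2.97- to 5.46-fold. By Signal the ranges were 1.35 to 1.68 and 2.69 to 3.77. Across the 11 the correlation of C57Bl/6J mean and log2 difference was r = 0.78, a description over probe sets that share the same 8 arrays and, in 3 genes, the same transcript. The value of 14 was picked after the data were seen. Cpb1 lay 0.67 below the highest value on the C57Bl/6J arrays, averaged over the 4 arrays, and only 11 probe sets were brighter over all arrays. Of the 69 tested probe sets with a C57Bl/6J mean of at least 14, 47.8% were called lower in AKR/J and their median log2 difference was -0.18. The 69 include the 6 member probe sets above and the brightest probe sets of 10 other exocrine genes, all called lower. They were also picked by their level in C57Bl/6J. The share is therefore not that of bright probe sets apart from exocrine genes. Brightness depends on the probes, so it does not rank the genes by transcript amount, and its part in the sizes was not tested.

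**Figure D3:**
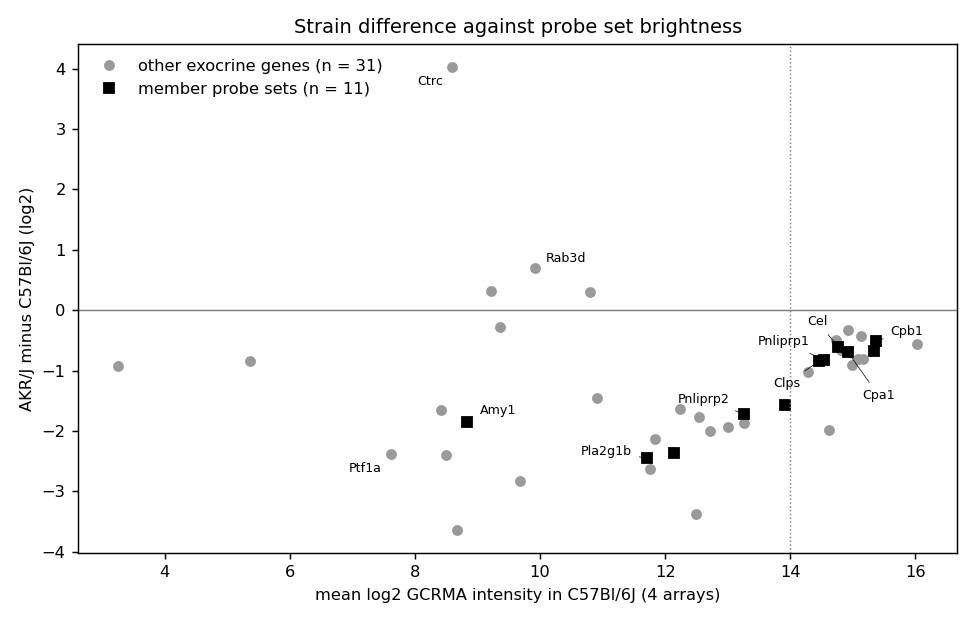
The AKR/J minus C57Bl/6J log2 difference (vertical axis) is plotted against the mean log2 intensity in C57Bl/6J for the 11 member probe sets (squares) and 31 other exocrine genes (circles), with a dotted line at 14. Members right of the line lie between -0.85 and -0.51 and those left of it between -2.45 and -1.57.

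Other genes, from a list drawn up for the acinar secretory pathway, went the same way in most cases. Whether each listed gene is particular to acinar cells was not tested. Of 48 listed, 31 were tested by their brightest probe set, 27 were lower in AKR/J, 2 were higher and 2 were not called, where 8.53% of 10891 genes were lower and 7.79% were higher. The median log2 difference of the 31 was -1.03. All 12 acinar markers counted above are on this list too, so those counts share genes. Prss8, a membrane-bound serine protease gene counted among the 27, was detected on 0 AKR/J and 4 C57Bl/6J arrays and so passed the filter only through C57Bl/6J. With detection required on all 8 arrays, 26 of 30 were lower. By smallest adjusted p the lower ones were led by Dmbt1, a secreted scavenger-type protein (3.65-fold, limma adjusted p = 2.16e-05), the pancreatic disulfide isomerase gene Pdia2 (4.36-fold, 2.28e-05), the serpin gene Serpini2 (6.17-fold, 2.48e-05), the zymogen granule gene Cuzd1 (3.11-fold, 6.42e-05), the trypsin inhibitor gene Spink1 (3.98-fold, 6.7e-05), the cargo receptor gene Tmed6 (2.75-fold, 0.000103) and the stress-response gene Nupr1 (3.84-fold, 0.000124). Ptf1a, the acinar transcription factor, was 5.22-fold lower in AKR/J (limma adjusted p = 0.000432). Against this direction went the chymotrypsin C gene Ctrc (16.3-fold higher, adjusted p = 1.21e-05) and Rab3d, a GTPase of zymogen granules (1.63-fold higher, adjusted p = 0.0103). The transcription factor gene Bhlha15 (log2 difference 0.32, adjusted p = 0.248) and the protease gene Bace2 (0.30, adjusted p = 0.0906) had positive differences that did not pass. Brightness went with size here by the medians only: the 10 genes with a C57Bl/6J mean of at least 14 had a median difference of -0.73 and the other 21 one of -1.77. Fold ranges of the genes called lower overlapped, at 1.255 to 3.96 for all 10 bright genes and 1.215 to 12.4 for 17 of the other 21. Ctrc, Rab3d, Bhlha15 and Bace2 are among those 21.

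Set against those 10 bright exocrine genes on the same array, whose mean was 0.80 lower in AKR/J, the members were sorted into 3 groups by overlap and direction, on GCRMA values. Pnliprp1 and both Clps probe sets had overlapping strains, with changes of -0.02, -0.05 and 0.13. Cel (0.19), Cpa1 (0.11) and Cpb1 (0.29) stood higher relative to these genes in AKR/J, without overlap. These first 2 groups are not split by size, since Clps 1438612_a_at (0.13) changed by more than Cpa1 but its values spread more within each strain. Pnliprp2 (-0.77 and -0.91), Pla2g1b (-1.65 and -1.56) and Amy1 (-1.05) stood lower, without overlap. The latter group holds the 5 dimmer probe sets. Against the mean of all 31 exocrine genes, which was 1.17 lower in AKR/J, Pnliprp2, Pla2g1b and Amy1 were again relatively lower, by -0.67 to -0.40 outside Pla2g1b, and the others were relatively higher, by 0.33 to 0.67. The sign for Pnliprp1 and Clps 1415805_at therefore depended on which exocrine genes served as the reference. No test was applied to these relative values, and they were not taken on the per-array Signal. Small relative shifts can depend on the measure. Clps minus Pnliprp1 on the same array changed by 0.15 (AKR/J minus C57Bl/6J) on GCRMA values, without overlap. On the Signal it changed by -0.10, with overlap.

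**Figure D4:**
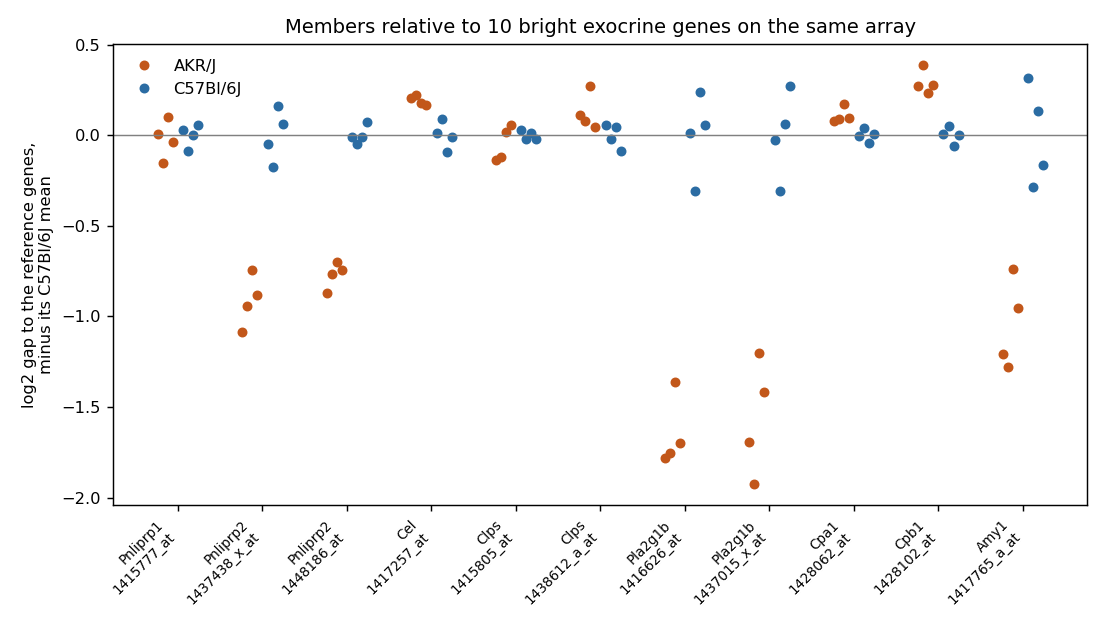
For each member probe set, the log2 gap to the mean of 10 bright exocrine genes on the same array is plotted after subtracting its C57Bl/6J mean, with 4 points per strain. Pnliprp2, Pla2g1b and Amy1 lie well below 0 in AKR/J, Pnliprp1 and Clps 1415805_at lie around it, and Cpb1 lies above it by 0.29 on average.

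Other lipases and carboxypeptidases, from lists that leave the members out, had calls in both directions or none lower. Of 11 tested other lipases and phospholipases (19 listed), 2 were lower in AKR/J, the endothelial-surface lipase gene Lpl, which is also on the fat marker list (2.21-fold, limma adjusted p = 0.00734) and the diacylglycerol lipase gene Daglb (1.52-fold, 0.0219). The intracellular or secreted phospholipase genes Pla2g12a (1.80-fold, 0.00038) and Pla2g6 (1.48-fold, 0.0384) and the monoglyceride lipase gene Mgll (1.46-fold, 0.00374) were higher. Lipe, Lipa, Pnpla2, Dagla, Ces1d and Pla2g4a did not pass. The median of the 11 was 0.13. Of 8 tested other carboxypeptidases (18 listed), 0 were lower by limma's adjusted p, and 2 were lower at an unadjusted p under 0.05. The lysosomal gene Scpep1 (1.51-fold, adjusted p = 0.00744) and Cpn1, whose product acts in plasma (1.40-fold, 0.0125), were higher. Cpe, which trims prohormones such as proinsulin in endocrine cells, stood at 14.38 ± 0.06 in AKR/J against 14.36 ± 0.03 in C57Bl/6J (SD, n = 4 each, limma adjusted p = 0.906). Cpd, Cpm, Cpq, Cpxm1 and Cpxm2 did not pass either, and the median of the 8 was 0.00.

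On GCRMA values, members varied together from array to array in AKR/J, while in C57Bl/6J they were split. After each strain's mean was subtracted, the 28 pairs among the 8 genes correlated over the 8 arrays with r from 0.29 to 0.96 and a median of 0.75, as a description of values from shared arrays. These r pool both strains. The mean of the centred members ran from -0.185 to 0.256 over the AKR/J arrays and from -0.09 to 0.034 over the C57Bl/6J arrays. AKR/J array 3 was the highest of its strain for 11 of 11 probe sets and array 1 the lowest for 9. C57Bl/6J array 6 was the highest of its strain for 3 probe sets (Cel, Cpa1 and Cpb1) and the lowest for 7. Array 7 was the lowest for those 3 and the highest for 4. By per-array Signal, array 3 was highest for 4 of 11 and lowest for 3, so its place depended on how the values were made. The SD was larger in AKR/J than in C57Bl/6J for 11 of 11 probe sets, for 8 of 11 without array 3, and for 4 of 11 by log2 Signal. Without array 3 all 11 remained called, with log2 differences from -2.59 to -0.53.

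The 8 other genes closest to the mean of the members, without centring, were Tmed11 (r = 0.997 over 8 arrays), Klk1, Pdia2, Ctrl, Erp27, Plaat3, Cuzd1 and Zg16 (0.992), and 7 of these 8 are on the exocrine list. Plaat3, a phospholipase and acyltransferase gene outside that list, was lower in AKR/J (log2 difference -1.82, limma adjusted p = 4.86e-05). With strain means removed, the closest of 7646 ranked genes were Celf2 (r = 0.987), Pdia2, Tgfbrap1, Tent4a, Mcm4, Mfsd14b, Stk35 and Zg16 (0.957), of which Pdia2 and Zg16 are exocrine. The median r of 29 ranked exocrine genes was 0.73 after centring, against 0.10 over all ranked genes. These correlations rank genes over 8 arrays and carry no p.

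Together, the brightest probe set of each of the 8 genes made up 0.988% ± 0.0963 of the summed GCRMA intensity of an array in AKR/J against 1.61% ± 0.0291 in C57Bl/6J (SD, n = 4 each). By per-array Signal the shares were 0.592% ± 0.0174 and 0.933% ± 0.0559 (SD, n = 4 each), and the strains did not overlap on either scale. For Pnliprp1, Cel, Cpa1, Cpb1 and Amy1 only 1 probe set was tested, so no second probe set of the gene checks the size. GCRMA and Signal read the same probes, and whether these match the transcripts of both strains equally was not tested. The samples are pools, and the p-values measure the spread between these pools.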

How the data were processed

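Islet RNA of 8 samples (5 µg each, per the labels) was hybridised to Affymetrix mouse expression arrays. The deposited value table holds intensity values from GCRMA, per the submitters' processing notes, on a linear scale by their range (1.53 to 69278.1), and was log2-transformed with no further normalization. The deposited per-array files hold Signal intensity values with detection p-values, as the deposited column headers name them, per the file headers. Versions and settings are not given in the sources used here. Table columns were matched to per-array files by their deviations from probe set means (r at least 0.676 for own files, at most 0.496 for others). Of 45101 probe sets, 64 controls were left out. Gene names came from GEO's platform annotation, which gives 34945 probe sets 1 symbol, 932 several and 9160 none, and probe sets with several genes were tested but not named.

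Differences were fitted with limma 3.58.1 in R 4.3.3 (lmFit, eBayes) on 20772 probe sets with Benjamini-Hochberg adjustment and calls at 0.05. Folds are 2 to the power of the log2 difference. Other genes were represented by their brightest tested probe set. The scripts were tested on simulated data. Figures used matplotlib 3.10.9.

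Named genes were all members, up to 8 exocrine genes by smallest adjusted p (Ctrc among them) and all that went against the majority, every tested gene of the family lists, and the 8 genes most like the members. Ptf1a and Plaat3 were given values for their role or likeness. Alternatives covered the filter, the values, normalization, variance model, array weights, probe set types and each array left out. The members and lists were chosen with earlier results of these data known. The files give no scan date, so no batch could be fitted, and precision is limited by the number of arrays. Marker lists of alpha, delta, PP, stromal and fat cells were counted as well. Of these, 0 of 3, 0 of 2, 0 of 1, 1 of 5 and 2 of 2 tested genes were lower in AKR/J by limma, with 1, 0, 1, 0 and 0 higher. A salivary list of 4 genes gave no separate check. Its only tested gene was Bhlha15, which is also counted among the acinar markers.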

Additional observations from a re-analysis of the deposited data

How the results depend on the processing

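The 11 member calls were kept with no filter (11 of 13 tested) and, as 11 of 11, with detection on all 8 arrays, with a further quantile normalization, with centring on array medians, with trend and robust variance, with array weights, with median-centred Signal and without each array in turn. With quantile-normalized Signal 8 of 11 were kept. Without probe sets ending in _x_at, _s_at or _a_at, 7 of 7 were called, since the other 4 were not tested. Of 183 single probe set values under these alternatives, 180 kept direction and call, 3 kept direction only (Cel, Cpa1 and Cpb1, above) and 0 reversed. Leaving out 1 array gave 25 to 27 of the other exocrine genes lower (27 with all arrays), and 2047 to 2820 called probe sets in all (2968 with all arrays). With quantile-normalized Signal 21 exocrine genes were lower. The members' log2 differences without 1 array ran from -2.59 (Pla2g1b without array 3) to -0.46 (Cpb1). No paired analysis was possible because the strains share no sample number. All 11 tested member probe sets were detected on all 8 arrays, but detection does not tell how background bears on the size of a difference. Folds of dimmer probe sets depended on the measure: 5.46 by GCRMA against 3.65 by Signal for Pla2g1b 1416626_at, and 3.60 against 2.93 for Amy1. The part of background in these sizes was not tested.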
